A study of Mus musculus with 5 samples.

Results

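The oligodendrocyte lineage genes described here are 6 rows of the deposited gene tables, picked by symbol: the transcription factors Olig1, Olig2, Sox10 and Sox8, and the surface proteins Pdgfra and Cspg4. All 6 were found among 27919 rows with a symbol, and all 6 were among the 13989 genes with enough counts to be tested. They were measured by RNA sequencing of polyadenylated RNA from forebrains of untreated C57BL/6 mouse embryos at E12.5, in 3 libraries labelled EedcKO and 2 labelled wild type, which the submitters describe as littermates. Eed is the gene of a core protein of Polycomb repressive complex 2, which methylates histone H3 at lysine 27 and keeps developmental genes silent. The sources used here do not give the driver of the deletion, the deleted part of the gene or the number of embryos behind each library. Where replicate libraries are not separate embryos, the p-values below measure a spread that may be technical.

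In the mouse forebrain, oligodendrocyte precursors first arise ventrally, from progenitors exposed to the morphogen Sonic hedgehog. Those progenitors switch on Olig2 and Olig1, bHLH transcription factors, and OLIG2 then helps switch on Sox10, an HMG-box factor of the SOXE group that stays on through myelination. Sox8 is a second SOXE gene, also used by other progenitors. Precursors carry the PDGF receptor alpha (Pdgfra), through which PDGF-A keeps them dividing, and the proteoglycan NG2 (Cspg4). Outside this lineage, Sox10 marks neural crest and Schwann cells, Pdgfra marks mesenchyme and Cspg4 marks pericytes.

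Olig2 (ENSMUSG00000039830.9, chromosome 16, 91225457 to 91228677, plus strand, mm10) and Olig1 (ENSMUSG00000046160.6, 91269772 to 91271933, plus strand) lie on the same chromosome, 41.1 kb apart, with no other protein-coding gene between them. Sox10 (ENSMUSG00000033006.10) lies on chromosome 15 at 79154908 to 79165240 on the minus strand. Sox8 (ENSMUSG00000024176.10) lies on chromosome 17 at 25565892 to 25570686, also on the minus strand. Pdgfra (ENSMUSG00000029231.15) is on chromosome 5 at 75152292 to 75198215, and Cspg4 (ENSMUSG00000032911.6) on chromosome 9 at 56865033 to 56899870, both on the plus strand. On the opposite strand, Gm15966 overlaps Olig1, 2810468N07Rik overlaps Sox8, and Gm42802 and Gm42803 overlap Pdgfra. The sources used here do not say whether reads were counted by strand, so reads of these transcripts cannot be told apart from those of the 3 members.

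RefSeq promoter windows (build GRCm38.p6, from 250 bases before to 50 bases after the start, 300 bases each) were matched for 4 of the 6 members. The windows of Olig2, Sox8 and Pdgfra are shown because these genes had different patterns across the libraries: lower EedcKO values, higher EedcKO values, and groups that overlapped. Capitals mark CpG dinucleotides, the feature that sets CpG-island promoters, a common site of Polycomb binding in mammals, apart from other promoters.
Olig2, chr16:91225300-91225599, plus strand: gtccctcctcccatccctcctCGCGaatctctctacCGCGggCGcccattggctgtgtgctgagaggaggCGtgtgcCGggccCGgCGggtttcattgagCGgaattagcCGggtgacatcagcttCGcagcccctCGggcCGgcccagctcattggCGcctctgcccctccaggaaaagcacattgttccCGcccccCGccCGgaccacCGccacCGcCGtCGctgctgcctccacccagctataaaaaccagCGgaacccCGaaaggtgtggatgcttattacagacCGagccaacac
Sox8, chr17:25570637-25570936, minus strand: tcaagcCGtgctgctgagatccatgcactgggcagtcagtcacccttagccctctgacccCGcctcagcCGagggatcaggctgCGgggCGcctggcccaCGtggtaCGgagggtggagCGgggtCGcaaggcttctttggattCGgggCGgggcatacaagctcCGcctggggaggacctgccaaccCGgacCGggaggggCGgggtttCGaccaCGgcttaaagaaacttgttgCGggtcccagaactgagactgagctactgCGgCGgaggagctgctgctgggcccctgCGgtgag
Pdgfra, chr5:75152001-75152300, plus strand: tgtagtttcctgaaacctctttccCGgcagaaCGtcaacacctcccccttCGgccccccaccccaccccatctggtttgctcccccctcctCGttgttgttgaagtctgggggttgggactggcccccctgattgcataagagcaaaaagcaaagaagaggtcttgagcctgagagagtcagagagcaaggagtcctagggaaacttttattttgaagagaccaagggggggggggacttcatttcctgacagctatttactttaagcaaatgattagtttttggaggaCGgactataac
The Olig2 window held 25 CpG, the Sox8 window 21 and the Pdgfra window 5, against a median of 7 over 32851 windows. Cspg4, whose window is not shown, held 17. The E-box CANNTG, the core bound by bHLH factors and its own reverse complement, occurred in the Pdgfra window 2 times, in the Sox8 window 1 time (CACGTG, which also holds a CpG) and in neither the Olig2 nor the Cspg4 window, and 72.3% of all windows held it. The SOX core ACAAT, searched on both strands, occurred 1 time each in the Olig2 and Cspg4 windows and in 31.0% of all windows. The GLI site GACCACCCA, searched on both strands, occurred in none of the 4 windows and in 0.253% of all windows. These matches describe letters in a window and no binding was measured.

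Depth was even across the libraries. Their counts summed to 4915493, 4959394 and 5008928 in EedcKO 1, 2 and 3, and to 5026381 and 4820630 in the libraries labelled wild type 1 and 2. Eed, the targeted gene, had 251, 233 and 247 counts in EedcKO 1, 2 and 3, against 404 and 238 in the libraries labelled wild type 1 and 2, so the library labelled wild type 2 goes against its label. Counts span the whole gene, undeleted exons among them, and so check the labels only in part. That library is 1 of the 2 wild-type libraries in every comparison that follows, and the number of calls without it stands beside the calls of each gene list below. Genes of other tissues stood apart in it as well. The epithelial keratin gene Krt5 had 20, 1 and 0 counts in EedcKO 1, 2 and 3, against 0 and 428 in the libraries labelled wild type 1 and 2. The muscle factor Myog had 3, 0 and 0 counts in EedcKO, against 0 and 36 in the libraries labelled wild type 1 and 2. Both genes are named after their values were seen. Xist and Y-linked counts marked EedcKO 1 and both wild-type libraries as female, and EedcKO 2 and 3 as male. The forebrain label was met in every library: 10 listed forebrain genes summed to 2226 to 2365 CPM (counts relative to the library total after TMM scaling) in EedcKO and to 2038 to 2168 CPM in wild type. Of these 10, 2 passed the test as higher, Otx1 (log2 fold change 0.98) and Pax6 (0.65), and none as lower. Without the library labelled wild type 2 the calls were 3 higher and 2 lower, and without EedcKO 2 or EedcKO 3 there were none (4 in each at an unadjusted edgeR p under 0.05).

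Of the 6 oligodendrocyte lineage genes, 1 passed the test as lower in EedcKO, Sox10, and none passed as higher (edgeR quasi-likelihood test, adjusted p under 0.05). Among all 13989 tested genes, 3.2% passed, 2.17% as lower and 1.04% as higher. At an unadjusted edgeR p under 0.05 there were 3 of the 6 genes and 2407 of all 13989 tested genes. Unadjusted counts of the gene lists, with all libraries, stand against that share of all tested genes. Olig1 and Olig2 had lower values in every EedcKO library than in either wild-type library but did not pass. Sox8 had higher values in every EedcKO library, by a smaller margin, and also did not pass. For Pdgfra and Cspg4 the groups overlapped. Groups did not overlap, with EedcKO lower, for 3 of the 6 genes and for 17.4% of all tested genes, and with EedcKO higher for 1 of the 6 and for 16.4% of all tested genes. The median log2 fold change of the 6 was -0.84, against 0.01 over all tested genes.

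**Figure D1:**
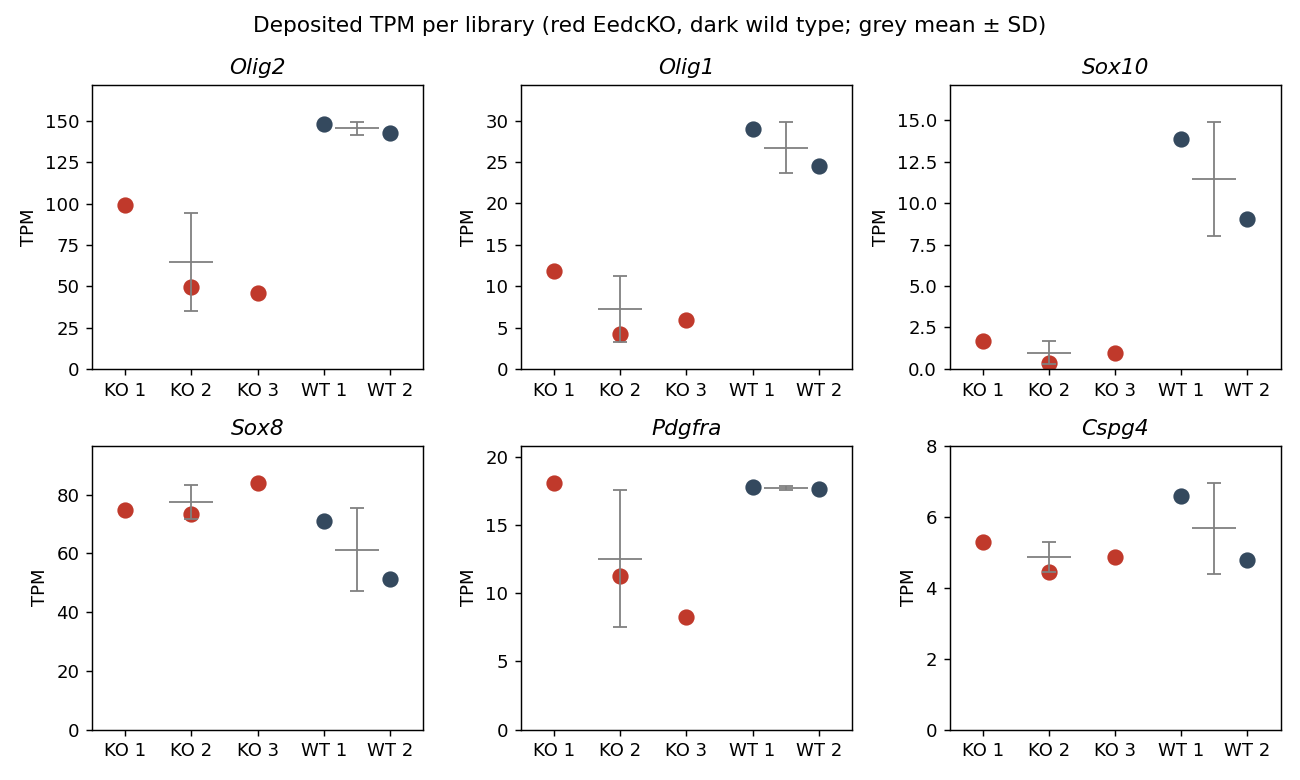
Deposited TPM (transcript abundance scaled per length and per library) of each gene in each library, 1 panel per gene, EedcKO (KO) in red on the left and wild type (WT) in dark blue on the right, with the mean and SD of each group in grey. Olig2, Olig1 and Sox10 sit lower in all 3 EedcKO libraries, with EedcKO 1 the highest of the 3, while Sox8 sits between 73.4 and 84.0 TPM in EedcKO and at 71.2 and 51.4 TPM in wild type.

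Olig2, the bHLH factor at the head of the lineage, had 246, 126 and 118 counts in EedcKO 1, 2 and 3, against 372 and 368 in the libraries labelled wild type 1 and 2. The wild-type libraries were close together, the EedcKO libraries were spread, and EedcKO 1 lay between the other EedcKO libraries and the wild type. As CPM the means were 33.8 ± 15.1 in EedcKO (SD, n = 3) and 76.4 ± 2.54 in wild type (SD, n = 2). The log2 fold change was -1.18 (SE 0.30, 95% interval -1.89 to -0.46, edgeR adjusted p = 0.0949). EedcKO 1 held 67.0% of the wild-type mean of Olig2, EedcKO 2 held 34.0% and EedcKO 3 held 31.6%. In bulk tissue, fewer cells of a type and less RNA per cell cannot be told apart, here and for every gene below.

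Olig1, the neighbouring bHLH gene, had 25, 9 and 13 counts in EedcKO 1, 2 and 3, against 62 and 54 in the libraries labelled wild type 1 and 2. Again no EedcKO library reached the wild type, and EedcKO 1 was the highest of its group. The means were 3.24 ± 1.75 CPM in EedcKO (SD, n = 3) and 12.0 ± 1.48 CPM in wild type (SD, n = 2), for a log2 fold change of -1.88 (SE 0.41, 95% interval -2.84 to -0.92, edgeR adjusted p = 0.0570). With so few counts the libraries are known only coarsely: the 95% Poisson interval was 4.12 to 17.1 counts in EedcKO 2 and 16.2 to 36.9 in EedcKO 1. The ratio of Olig2 to Olig1 in TPM was 8.41, 11.96 and 7.76 in EedcKO 1, 2 and 3, against 5.13 and 5.82 in the libraries labelled wild type 1 and 2. An exact two-sided permutation test of its log2 over the libraries gave p = 0.1, the smallest that 3 libraries against 2 allow, and the ratio was chosen after its values were seen.

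Sox10, the SOXE factor that precursors keep through myelination, had 5, 1 and 3 counts in EedcKO 1, 2 and 3, against 42 and 28 in the libraries labelled wild type 1 and 2. It was near the detection limit in all EedcKO libraries, where 3 counts correspond to 0.614 to 0.625 CPM. The highest EedcKO library had a 95% Poisson interval of 1.62 to 11.7 counts and the lowest wild-type library one of 18.6 to 40.5. The means were 0.621 ± 0.418 CPM in EedcKO (SD, n = 3) and 7.26 ± 2.23 CPM in wild type (SD, n = 2). Sox10 fell with a log2 fold change of -3.49 (SE 0.53, 95% interval -4.74 to -2.25, edgeR adjusted p = 0.0210). Without the library labelled wild type 2 the value was -3.77 (edgeR adjusted p = 0.00791) and without wild type 1 it was -3.16 (edgeR adjusted p = 0.0248). The call was lost without EedcKO 2 (-3.09, edgeR adjusted p = 0.0653) and without EedcKO 3 (-3.49, edgeR adjusted p = 0.143).

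Sox8, the paralog of Sox10, had 229, 229 and 266 counts in EedcKO 1, 2 and 3, against 220 and 163 in the libraries labelled wild type 1 and 2. The EedcKO libraries were alike, and wild type 1 lay just under them. The means were 49.8 ± 4.003 CPM in EedcKO (SD, n = 3) and 39.7 ± 9.34 CPM in wild type (SD, n = 2). The log2 fold change was 0.33 (SE 0.16, 95% interval -0.05 to 0.70, edgeR adjusted p = 0.354), with 0.57 (edgeR adjusted p = 0.0655) without wild type 1 and 0.11 (edgeR adjusted p = 0.754) without the library labelled wild type 2. The ratio of Sox8 to Sox10 in TPM was 44.8, 224 and 86.8 in EedcKO 1, 2 and 3, against 5.13 and 5.70 in the libraries labelled wild type 1 and 2, and rests on the few Sox10 counts. The same exact permutation test of its log2 gave p = 0.1, again the smallest possible, for a ratio chosen after its values were seen. The third SOXE gene, Sox9, a factor of neural progenitors and astrocytes, had a log2 fold change of 0.21 (edgeR adjusted p = 0.337). Olig3, the third OLIG gene, which marks the thalamus and dorsal hindbrain, had 4, 34 and 4 counts in EedcKO 1, 2 and 3, against 12 and 29 in the libraries labelled wild type 1 and 2, with no order between the groups, and is named after its values were seen.

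Pdgfra, the receptor of precursors, had 178, 113 and 84 counts in EedcKO 1, 2 and 3, against 177 and 180 in the libraries labelled wild type 1 and 2. EedcKO 1 stood at the wild-type level and the other EedcKO libraries below it, so the groups overlapped. The means were 25.9 ± 10.2 CPM in EedcKO (SD, n = 3) and 36.9 ± 0.507 CPM in wild type (SD, n = 2), with a log2 fold change of -0.51 (SE 0.29, 95% interval -1.19 to 0.16, edgeR adjusted p = 0.432). Leaving out EedcKO 1 moved it to -0.87 (edgeR adjusted p = 0.0951), and leaving out EedcKO 3 to -0.29 (edgeR adjusted p = 0.657). Cspg4, the NG2 proteoglycan, had 62, 53 and 59 counts in EedcKO 1, 2 and 3, against 78 and 58 in the libraries labelled wild type 1 and 2. All libraries but wild type 1 were within a narrow range, and the log2 fold change was -0.23 (SE 0.22, 95% interval -0.75 to 0.29, edgeR adjusted p = 0.681). Without wild type 1 it was 0.01, and without the library labelled wild type 2 it was -0.45 (edgeR adjusted p = 0.3335).

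**Figure D2:**
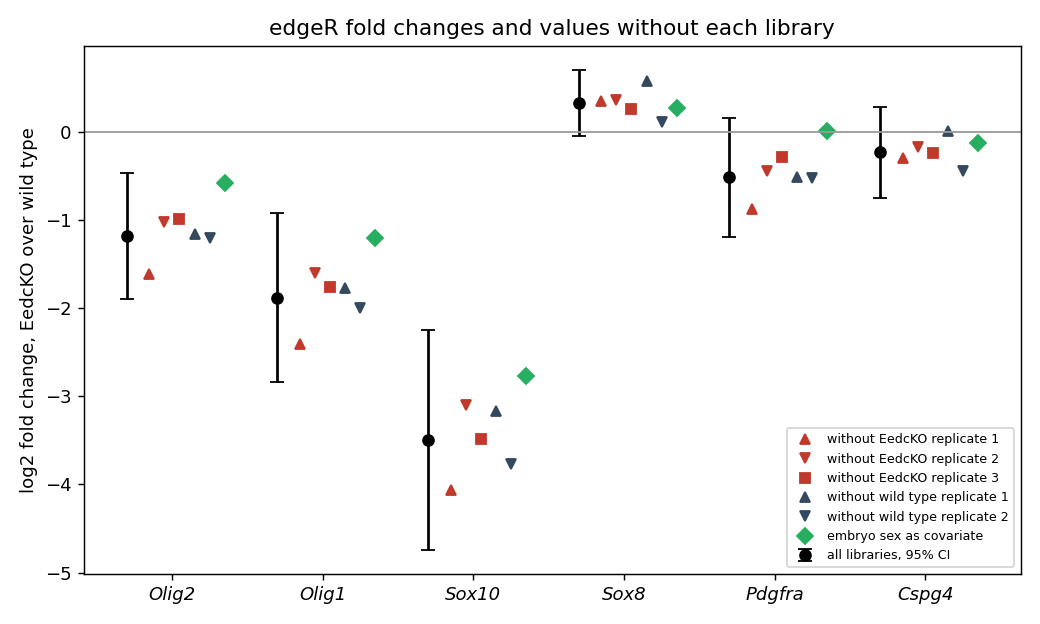
Log2 fold change of each gene, EedcKO over wild type, with its 95% interval over all libraries (black), the values with each library left out (red for EedcKO, dark blue for wild type) and with embryo sex as a covariate (green). Sox10, Olig1 and Olig2 stay below 0 throughout, furthest when EedcKO 1 is left out (-4.06, -2.40 and -1.62), whereas Pdgfra and Cspg4 each touch 0 in 1 setting.

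Which libraries are kept decided how many of the 6 genes passed. Without EedcKO 1, the library nearest to wild type for most of these genes, 3 passed as lower: Sox10 (edgeR adjusted p = 0.0367), Olig1 (0.0373) and Olig2 (0.00686), where 1.19% of all tested genes passed as lower. Without the library labelled wild type 2 the count was 2, Sox10 and Olig1 (edgeR adjusted p = 0.0375), against 4.12% of all genes, and without wild type 1 it was 1, Sox10, against 4.02%. None passed without EedcKO 2 (0.455% of all genes) or without EedcKO 3 (0% of all genes). In each of those fits edgeR had 3 of the 6 at an unadjusted p under 0.05. Over all tested genes the unadjusted count was 1768 of 13860 without EedcKO 2 and 1886 of 13891 without EedcKO 3. None of the 6 passed as higher in these fits, where the share of all tested genes that did was 0.701%, 0.152% and 0% without EedcKO 1, 2 and 3, 3.01% without wild type 1 and 2.07% without the library labelled wild type 2. With sex as a covariate the fit compares EedcKO 1 with the wild type, since no wild-type library was male. It gave a log2 fold change of -2.77 for Sox10, -1.20 for Olig1, -0.58 for Olig2, 0.27 for Sox8, -0.12 for Cspg4 and 0.01 for Pdgfra, and none passed (edgeR adjusted p between 0.258 and 0.994). Sex and the difference between EedcKO 1 and the other EedcKO libraries cannot be told apart.

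Per length, the order of the genes differed between the groups. In the wild type it ran Olig2 (146 TPM), Sox8 (61.3), Olig1 (26.7), Pdgfra (17.7), Sox10 (11.5) and Cspg4 (5.69), as mean TPM, in the same order in both libraries, and no neighbours overlapped in their ranges. In EedcKO it ran Sox8 (77.4 ± 5.75 TPM, SD, n = 3), Olig2 (65.0 ± 29.7), Pdgfra (12.54 ± 5.05), Olig1 (7.29 ± 3.99), Cspg4 (4.87 ± 0.428) and Sox10 (0.989 ± 0.672). There the ranges of Sox8 and Olig2, of Pdgfra and Olig1, and of Olig1 and Cspg4 overlapped. EedcKO 1 kept Olig2 first, and Sox8 came first in EedcKO 2 and 3. Olig2 made up 47.0%, 34.7% and 30.6% of the summed TPM of the 6 genes in EedcKO 1, 2 and 3, against 51.7% and 57.1% in the libraries labelled wild type 1 and 2. That sum was 211, 143 and 150 TPM in EedcKO 1, 2 and 3, against 287 and 250.3 in the libraries labelled wild type 1 and 2.

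Genes with the most similar profile were sought among 13208 other tested genes, by the Euclidean distance of log2(CPM + 1) centred over the 5 libraries. For Olig2 they were Fgf14 (distance 0.170), Ripor2 (0.288) and Ano1 (0.324), for Olig1 they were Qrfprl (0.269), Ddc (0.417) and Ano1 (0.460), and for Sox10 they were Slc10a4 (0.407), Ddc (0.469) and Gpr17 (0.554). Sox8 was nearest to Mdc1 (0.0324), Acss1 (0.0564) and Setd1a (0.0890), Pdgfra to Slc16a11 (0.136), Spry1 (0.194) and Jakmip1 (0.265), and Cspg4 to Fmn2 (0.0535), Tbc1d24 (0.0562) and Sema4g (0.0584). Among the 6 genes themselves the closest pair was Olig1 and Olig2 (0.606), and the most distant was Sox10 and Sox8 (2.999). With 5 libraries, 1 shared difference between groups is enough to make profiles alike.

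Other genes of the oligodendrocyte precursor network moved in both directions. Of 26 tested genes, 1 passed as lower and 3 as higher, and their median log2 fold change was 0.07. The gliogenic factors Nfib (0.77, edgeR adjusted p = 0.0283) and Nfia (0.76, edgeR adjusted p = 0.0196) rose, as did Id2, an inhibitor of bHLH factors (0.83, edgeR adjusted p = 0.0310). These calls depend on the libraries kept. Without EedcKO 1 the list had 2 higher calls and none lower, with Nfib at an edgeR adjusted p of 0.0516, and without EedcKO 2 or EedcKO 3 it had none (9 in each at an unadjusted edgeR p under 0.05). Without wild type 1 it had 4 higher and none lower, and without the library labelled wild type 2 it had 5 higher and 4 lower. Gpr17, a receptor of committed precursors, had 6, 1 and 2 counts in EedcKO 1, 2 and 3, against 40 and 17 in the libraries labelled wild type 1 and 2 (log2 fold change -3.20, edgeR adjusted p = 0.0523). Nkx2-2, a homeodomain factor of ventral progenitors and differentiating oligodendrocytes, had 0 counts in all 3 EedcKO libraries, against 28 and 8 in the libraries labelled wild type 1 and 2. Set against a floor of 3 counts over the EedcKO group it was at least 18.0-fold lower in EedcKO, a bound of 28.5-fold against wild type 1 alone and of 7.86-fold against the library labelled wild type 2 alone. It had too few counts for the test. Nkx6-2, a related homeodomain gene, had 48, 22 and 41 counts in EedcKO 1, 2 and 3, against 81 and 83 in the libraries labelled wild type 1 and 2 (log2 fold change -1.15, edgeR adjusted p = 0.104). Nkx2-2 and Nkx6-2 are named after their values were seen.

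Genes of maturing and myelinating oligodendrocytes had no call among 13 tested by edgeR, DESeq2 or limma-voom. EdgeR had 3 of the 13 at an unadjusted p under 0.05, against 2407 of all 13989 tested genes. Without the library labelled wild type 2, edgeR called 1 as lower. Mbp, a myelin gene whose locus also gives transcripts outside myelin, had 227, 195 and 249 counts in EedcKO 1, 2 and 3, against 271 and 305 in the libraries labelled wild type 1 and 2 (log2 fold change -0.36, edgeR adjusted p = 0.184). Among PDGF ligands and receptors none of 6 tested passed in edgeR, DESeq2 or limma-voom, with 1 at an unadjusted edgeR p under 0.05. That was Pdgfa, the ligand of PDGFRA, which had 66, 73 and 56 counts in EedcKO 1, 2 and 3, against 67 and 178 in the libraries labelled wild type 1 and 2 (-0.90, edgeR adjusted p = 0.273), so the lower value rests on the library labelled wild type 2. Without wild type 1 Pdgfa passed as lower (edgeR adjusted p = 0.00663), and without the library labelled wild type 2 it had an adjusted p of 0.931 in edgeR. Pdgfc had a log2 fold change of 0.48 (edgeR adjusted p = 0.378) and passed as higher without that library (edgeR adjusted p = 0.0253).

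Genes of the ventral region where the lineage arises were mostly lower. Of 18 tested ventral telencephalic factors, 4 passed as lower and none as higher, with a median log2 fold change of -1.06. Among them were Lhx8 (-4.77), Sp9 (-0.97) and Dlx5 (-0.92), transcription factors of ventral progenitors and the neurons they form. The number was 7 without EedcKO 1 and 7 without the library labelled wild type 2, with none higher in either, and without wild type 1 it was 2 lower and 1 higher. It was 0 without EedcKO 2 or without EedcKO 3 (13 and 14 at an unadjusted edgeR p under 0.05). Of 15 tested hedgehog pathway genes 2 passed as lower, the ligand Shh (-5.19) and the target Gli1 (-1.93), and 5 passed as higher, among them the co-receptors Cdon (1.30) and Boc (0.98). Of 11 factors of dorsal progenitors and neurons 6 passed as higher and none as lower, among them Neurog1 (1.48), Eomes (1.16), Neurog2 (0.79) and Gli3 (0.78). Gli3 stands in both the hedgehog and the dorsal list, so its call counts in each. Over all tested genes 2.17% passed as lower and 1.04% as higher. Without EedcKO 3 edgeR made none of these hedgehog and dorsal calls (10 and 7 genes at an unadjusted p under 0.05). Without EedcKO 2 the hedgehog list had 1 lower and 2 higher calls and the dorsal list none (7 at an unadjusted edgeR p under 0.05). Without EedcKO 1 the hedgehog list had 3 lower and 3 higher and the dorsal list 5 higher. The hedgehog calls were 1 lower and 4 higher without wild type 1, and 4 lower and 5 higher without the library labelled wild type 2. For the dorsal list they were 6 higher and 1 lower without wild type 1, and 7 higher without the library labelled wild type 2. Shh, Cdon and Boc passed in each of these fits except the one without EedcKO 3, whereas Lhx8 passed with a library left out only in the fit without EedcKO 1.

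EedcKO 1 stood apart from EedcKO 2 and 3 in the ventral genes as in Olig2, Olig1 and Pdgfra. Of the 3 EedcKO libraries, EedcKO 1 was nearest to the wild-type mean for 5 of the 6 oligodendrocyte lineage genes, all but Sox8, and for 16 of the 18 ventral factors. Over all tested genes the share was 31.3%, and over the 303 genes that passed as lower 46.9%. It was also nearest for 9 of 13 neural crest genes, 7 of 11 dorsal factors and 8 of 13 pericyte genes, but for 1 of 6 muscle and cartilage genes. Whether these shares differ between lists was not tested. The gap was wide in Nkx2-1, the factor that specifies the medial ganglionic eminence, named after its values were seen. It had 331, 7 and 6 counts in EedcKO 1, 2 and 3, against 863 and 724 in the libraries labelled wild type 1 and 2. Its log2 fold change was -2.79 (SE 1.35, edgeR adjusted p = 0.406), with EedcKO 1 at 69.0 CPM and EedcKO 2 and 3 at 1.45 and 1.23 CPM. Shh was low in all 3 EedcKO libraries: EedcKO 1, 2 and 3 had 5, 1 and 3 counts, against 124 and 103 in the libraries labelled wild type 1 and 2. Olig2 had 67.0% of its wild-type mean in EedcKO 1, in which Shh had 4.44% and Nkx2-1 42.0%. These are values of 1 library, which also differed from EedcKO 2 and 3 in sex, and a relation between these genes was not tested.

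**Figure D3:**
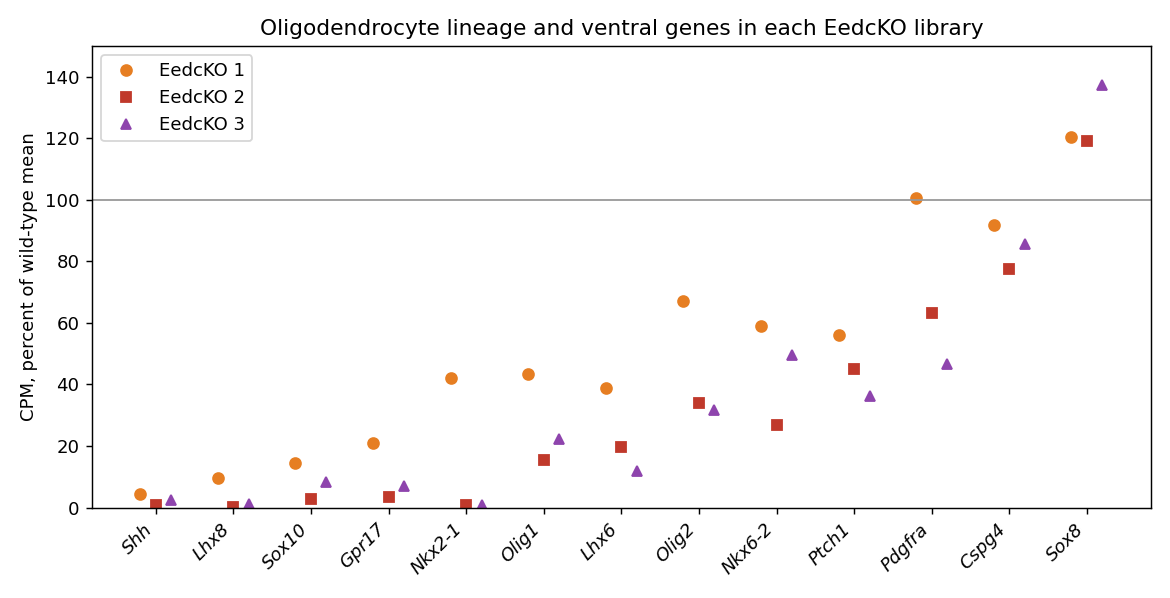
CPM of oligodendrocyte lineage genes and selected ventral and hedgehog genes in each EedcKO library, as a percentage of the wild-type mean, which is the line at 100. EedcKO 1 (orange) lies above EedcKO 2 and 3 for Olig2 (67.0%), Olig1 (43.4%), Pdgfra (100.6%) and Nkx2-1 (42.0%), while Shh stays under 5% in all 3.

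Sox10, Pdgfra and Cspg4 are also marks of other tissues, whose lists were measured in the same libraries. The neural crest and Schwann cell list, which shares Sox10, summed to 363, 330 and 293 CPM in EedcKO 1, 2 and 3, against 486 and 413 in the libraries labelled wild type 1 and 2. Of its 13 tested genes, 1 passed, Sox10, and 6 had an unadjusted edgeR p under 0.05, all with lower values, for a median log2 fold change of -0.78. After Sox10, Tfap2b (-1.25, edgeR adjusted p = 0.0634), a factor of crest, and Ngfr (-0.78, edgeR adjusted p = 0.0741), a neurotrophin receptor, were among those 6, named after their values were seen. The list had 1 lower call without EedcKO 1, 4 without wild type 1 and 3 without the library labelled wild type 2, and none without EedcKO 2 or EedcKO 3 (4 in each at an unadjusted edgeR p under 0.05). Its defining marker Foxd3 was at or near 0 in every library, with 0, 0 and 1 counts in EedcKO 1, 2 and 3, against 1 and 0 in the wild-type libraries. Erbb3, the neuregulin receptor of Schwann cells, had 10, 3 and 7 counts in EedcKO, against 12 and 34 in the libraries labelled wild type 1 and 2. The list's sums did not overlap between the groups, and the part of neural crest in the Sox10 difference was not tested. Fabp7 and Isl1 of this list also stand in the precursor and ventral lists, and both are named after their values were seen. Isl1 held 75.0, 41.3 and 43.8 CPM of these sums in EedcKO 1, 2 and 3. It held 143 and 73.0 CPM in the libraries labelled wild type 1 and 2. Fabp7 went the other way, with 107, 109 and 101 CPM in EedcKO, against 99.5 and 93.9 in wild type. The sums of this list thus do not measure neural crest alone.

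Mesenchyme and meninges genes, the list that shares Pdgfra, summed to 1548, 974 and 1211 CPM in EedcKO 1, 2 and 3, against 1132 and 1350 in the libraries labelled wild type 1 and 2. EedcKO 1, which had the highest Pdgfra of its group, was also the highest of all libraries here. Nnat and Zic1, listed genes not particular to mesenchyme, made up a large part of these sums. Nnat, named after its values were seen, had 265, 265 and 259 CPM in EedcKO 1, 2 and 3. It had 300 and 277 CPM in the libraries labelled wild type 1 and 2. Zic1 had 208, 140 and 159.5 CPM in EedcKO, against 306 and 263 in wild type. These sums thus do not measure mesenchyme alone. The defining marker Col1a1, a fibrillar collagen, had 1054, 367 and 584 counts in EedcKO 1, 2 and 3, against 329 and 781 in the libraries labelled wild type 1 and 2. Lum, another matrix gene, had 258, 143 and 175 in EedcKO, against 103 and 138 in the libraries labelled wild type 1 and 2. Twist1, a mesenchymal factor, had 53, 40 and 27 in EedcKO, against 15 and 123 in the libraries labelled wild type 1 and 2. The part of mesenchyme in the Pdgfra values was not tested. Pdgfra differed by 3 counts between the wild-type libraries. In this list none of 19 tested genes passed in edgeR or limma-voom, 2 passed in DESeq2 and 7 had an unadjusted edgeR p under 0.05, those with the smallest p being Zic1 (-0.75) and Foxd1 (-0.998). EdgeR called 1 as lower without EedcKO 1, 2 as lower without wild type 1 and 2 as higher without the library labelled wild type 2.

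Pericyte genes, the list that shares Cspg4, summed to 379, 367 and 417 CPM in EedcKO 1, 2 and 3, against 370 and 332 in the libraries labelled wild type 1 and 2. The groups overlapped, as they did for Cspg4. The pericyte markers Rgs5 (210, 210 and 190 counts in EedcKO, against 248 and 127 in wild type), Kcnj8 (26, 23 and 21, against 26 and 24) and Pdgfrb (182, 152 and 208, against 198 and 178) were detected in every library. None of 13 tested genes passed in edgeR, DESeq2 or limma-voom. At an unadjusted edgeR p under 0.05 there were 2, Tbx18 (1.04) and Notch3 (0.31), against 2407 of all 13989 tested genes. Without either wild-type library edgeR called 1 as higher. Endothelial genes had no call among 12 in any of the 3 tools and none at an unadjusted edgeR p under 0.05 (Flt1 0.28, Plvap 0.17). Striated muscle and cartilage genes had no edgeR call among 6 tested (1 in DESeq2, 0 in limma-voom, 1 unadjusted), with Col2a1 at 0.45 and Sox9 at 0.21. Epithelial and placode genes had none among 7 (1 in DESeq2, 0 in limma-voom, 5 unadjusted), with Krt8 at -2.93 and Gap43 at -0.38. Without wild type 1, so with the library labelled wild type 2 as the only wild type, the muscle and cartilage list had 4 lower and 1 higher calls and the epithelial list 5 lower. Without the library labelled wild type 2 the muscle and cartilage list had none (2 at an unadjusted edgeR p under 0.05) and the epithelial list 1 higher. The epithelial list summed to 162 to 176 CPM in EedcKO, against 173 and 360 in the libraries labelled wild type 1 and 2. Gap43, which is not particular to epithelium, held 95.6, 112 and 103 CPM of these sums in EedcKO 1, 2 and 3. It held 135 and 134 CPM in the libraries labelled wild type 1 and 2. These sums thus do not measure epithelium alone.

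**Figure D4:**
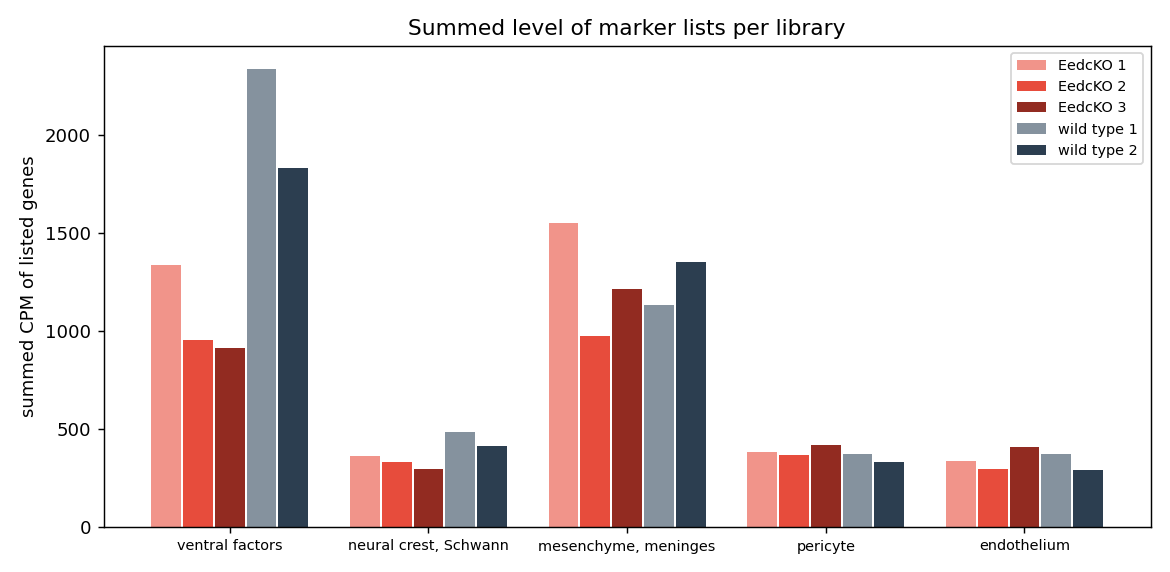
Summed CPM of the listed genes of ventral factors and of 4 other cell types in each library, EedcKO in reds on the left of each group of bars and wild type in greys on the right. Ventral factors stand at 912 to 1333 CPM in EedcKO and at 1831 and 2335 CPM in wild type, while pericyte and endothelial sums overlap between the groups.

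Of 15 other tested genes within 100 kb of the 6 members, edgeR called none. Of these 15, 2 had an unadjusted edgeR p under 0.05, against 2407 of all 13989 tested genes. The tested neighbours of Sox10 ran from the 1700088E04Rik row (log2 fold change -0.34, edgeR adjusted p = 0.114) to Baiap2l2 (0.29, edgeR adjusted p = 0.804), and its nearest tested neighbour, the RNA polymerase subunit gene Polr2f, had 0.03. Lmf1 beside Sox8 had -0.09. Beside Pdgfra the ventral homeobox gene Gsx2 had -0.27 (edgeR adjusted p = 0.516), and beside Cspg4 the values ran from -0.55 for Lingo1 (edgeR adjusted p = 0.130) to 0.11 for Snx33. Olig1 and Olig2 had only each other as tested neighbours.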

How the data were processed

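Per the submitters' processing notes, HISAT2 2.2.0 and mm10 were used. The sources used here give no counting tool, annotation or strand setting. The authors deposited whole-number counts per gene (56196 rows) and TPM (24926 rows, equal column sums), each with a column for each of the 5 libraries and 0 others. Rows without a symbol (28277, 50.3%, with 2.01% to 2.16% of the counts) were left out of library sizes and tests. For 407 symbols on several rows, the row holding 99% or more of the counts kept the symbol.

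Counts were tested in R 4.3.3 with edgeR 4.0.16: filterByExpr by group, TMM, robust glmQLFit and glmQLFTest on group, with Benjamini-Hochberg adjustment over 13989 genes and a threshold of 0.05. Standard errors are the log2 fold change over the square root of F. Alternatives used DESeq2 1.42.0, limma 3.58.1 (voom on counts, trend on log2 TPM), other scalings and filters, each library left out, a replicate block and sex as a covariate. Fits that leave 1 wild-type library assume that it varies like EedcKO. The edgeR step was tested on simulated data. Depth was 4820630 to 5026381 counts per library. Poisson intervals cover counting error only, at 95%.

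Chi-square per gene between libraries was 2.62 to 11.0 times that of sampling noise, which left no duplicate libraries. It was 2.62 to 4.82 between EedcKO libraries, 8.44 between the wild-type libraries and 8.16 to 11.0 between libraries of different groups. The wild-type libraries thus differed from each other by an amount within the range seen between the groups. The 6 members and 15 lists were chosen with earlier results of these data known. Named genes were the members, Eed, the 3 genes most like each member, and, of each list, up to 4 called genes with the largest change or else the 2 with the smallest p. Defining markers of neural crest, mesenchyme and pericytes, picked with the lists, are named too. Genes named outside these rules are marked, and some that they name are not reported here. Coordinates are from GENCODE M21, 1-based, and promoter windows from RefSeq.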

Additional observations from a re-analysis of the deposited data

How the results depend on the processing

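The number of genes called among all tested was 448, and it was 679 with DESeq2, 203 and 152 with limma-trend on log2 TPM at pseudocounts of 1 and 0.1, and 42 without a filter on low TPM. It was 0 with sex as a covariate (1611 at an unadjusted p under 0.05) and 0 to 1012 with each library left out, from EedcKO 3 to wild type 1. Of the 6 oligodendrocyte lineage genes 1 was called. The count was 2 with library size alone, limma-voom or no count filter, and 3 with DESeq2 (Sox10, Olig1 and Olig2). Among all tested genes, 671 of 13989 were called with library size alone and 398 of 13989 with limma-voom. It was 648 of 19266 with no count filter and 679 of 13989 with DESeq2. The count among the 6 genes varied further. It was 0 with sex as a covariate, with limma-trend at a pseudocount of 0.1 and without a TPM filter (edgeR or limma, each with 3 at an unadjusted p under 0.05), and 0 to 3 with each library left out. Apart from the replicate block, given next, the remaining alternatives left the count among the 6 genes within 1.5 times. Only EedcKO 1 and 2 share replicate numbers with the wild type, and nothing in the labels says that a number pairs libraries. With the replicate block on those 4 libraries edgeR called 0 genes (2162 at an unadjusted p under 0.05) and 0 of the 6 members (3 unadjusted). The deviations of EedcKO 1 and wild type 1 had a correlation of -0.009, and those of EedcKO 2 and wild type 2 one of 0.127. Over 16 alternatives, Sox10, Olig1 and Olig2 kept a lower value and Sox8 a higher one in each. Sox10 was called in 10, Olig1 in 6, Olig2 in 2 and the other 3 genes in none. Cspg4 ran from -0.45 to 0.0092 with each library left out, and reversed without wild type 1 only, and Pdgfra reversed to 0.0083 with sex as a covariate. The cause of these changes was not tested. Depth limits genes of few counts, such as Sox10, Olig1 and Gpr17.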
